A study of Homo sapiens with 6 samples.

Results

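The 34 genes described here encode HLA molecules and the proteins that load them with peptide. They were taken by name from the 23923 genes that the array annotation allows to be measured. Of these 34 genes 23 belong to the class I pathway, 9 to the class II pathway, and MICA and MICB encode ligands of the receptor NKG2D. All 34 had rows on the array, 4774 in all, of which 151 name another gene too (147 under HLA-DRB1 and 4 under PSMB10). A gene's value is the mean log2 intensity over every row that names it.

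The arrays hold RNA of BT549, an established human line from a triple-negative breast cancer, here as BT549-pTripZ-200c cells, which carry the microRNA miR-200c under a doxycycline-inducible construct. 3 cultures were left untreated for 48 h and 3 received 1 µg/mL doxycycline for 48 h, with all cells attached in RPMI medium with 10% serum. Both groups carry the construct and only one received the drug, so the effects of doxycycline and of miR-200c cannot be told apart. Cultures were plated in triplicate, and no source used here says whether the line is 1 clone. The p-values therefore set the group difference against the spread between repeat cultures of this line, and do not speak for other lines. The precision of each value is limited by the 3 arrays in a group.

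Class I molecules carry peptides from inside the cell to its surface for inspection by CD8 T cells. Proteasomes cut the peptides, the TAP transporter brings them into the endoplasmic reticulum, aminopeptidases trim them there, and a loading complex places them in a heavy chain held by beta-2-microglobulin. Class II molecules carry peptides from endosomes to CD4 T cells and are made mostly by professional antigen-presenting cells, although interferon-gamma can switch them on elsewhere. MICA and MICB are stress-induced surface proteins that natural killer cells read through NKG2D.

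The microRNA that the cells were built to express is given first, with its seed, bases 2 to 8, in capitals, at chr12:6963742-6963764 on the plus strand (RefSeq, GRCh38.p14). No 3' UTR was searched for seed matches here.
hsa-miR-200c-3p: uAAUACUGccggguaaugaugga

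Stretches of promoter are shown for 7 members, all on chromosome 6: heavy chain and transporter genes with lower values in doxycycline, and the pairs TAP1 with PSMB9 and MICB with MICA, whose log2 changes differed in size. Each runs from 190 to 41 bases before the start that the RefSeq promoter table uses (GRCh38.p14), on the gene's own strand. For 5 of them this is the outermost start of the annotated gene, while for MICB and MICA it lies 3227 and 2884 bases inside it. Capitals mark matches on either strand to GAAANNGAAA, the core of an interferon-stimulated response element, or to TGATTGG, an inverted CCAAT box as found in the promoters of MHC genes.
HLA-B, chr6:31357220-31357369, minus strand: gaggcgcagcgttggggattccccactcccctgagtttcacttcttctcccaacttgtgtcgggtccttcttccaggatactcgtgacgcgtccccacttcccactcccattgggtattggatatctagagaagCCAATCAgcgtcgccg
HLA-C, chr6:31272133-31272282, minus strand: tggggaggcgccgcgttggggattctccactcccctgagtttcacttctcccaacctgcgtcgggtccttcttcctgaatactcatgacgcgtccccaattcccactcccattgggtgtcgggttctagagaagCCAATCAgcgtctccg
TAP1, chr6:32853745-32853894, minus strand: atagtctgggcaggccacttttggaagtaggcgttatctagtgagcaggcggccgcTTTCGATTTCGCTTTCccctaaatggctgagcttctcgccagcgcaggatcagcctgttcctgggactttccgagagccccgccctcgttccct
PSMB9, chr6:32854002-32854151, plus strand: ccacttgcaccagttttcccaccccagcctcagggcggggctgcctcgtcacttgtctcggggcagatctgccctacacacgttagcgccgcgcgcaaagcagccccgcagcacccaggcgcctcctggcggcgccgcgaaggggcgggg
TAP2, chr6:32838780-32838929, minus strand: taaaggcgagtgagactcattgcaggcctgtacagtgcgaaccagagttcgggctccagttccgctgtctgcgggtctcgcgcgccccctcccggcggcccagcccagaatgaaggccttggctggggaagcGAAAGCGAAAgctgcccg
MICB, chr6:31497955-31498104, plus strand: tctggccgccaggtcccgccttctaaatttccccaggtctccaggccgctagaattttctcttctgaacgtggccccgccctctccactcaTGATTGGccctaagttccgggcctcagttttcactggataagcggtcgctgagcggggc
MICA, chr6:31403405-31403554, plus strand: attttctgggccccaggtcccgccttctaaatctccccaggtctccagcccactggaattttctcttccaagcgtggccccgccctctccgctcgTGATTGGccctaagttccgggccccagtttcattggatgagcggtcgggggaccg

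The full windows have 300 bases, and RefSeq gives 40 of them for 29 of the 34 members. GAAANNGAAA was found in 11 of these 40, each of another member, and in 3.57% of all 35116 windows. The TAP1 window holds it at 134 and at 128 bases before the start, as overlapping matches, and the TAP2 window at 58 bases. The other members with it are B2M, ERAP1, ERAP2, HLA-F, PSMB8, PSMB10, PSME1, PSME2 and TAPBP. TGATTGG was found in 9 of the 40, again each of another member, and in 6.95% of all windows. HLA-B and HLA-C share it at 56 bases before the start, and MICA and MICB have it at 95 and 99 bases before the inner start named above. Another motif searched on both strands, the kappaB-like GGGNNNTNCC, was in 14 of the 40 and in 21.5% of all windows, and it is not capitalised above. HLA-E, HLA-DRA, PDIA3, CIITA and NLRC5 have no window in the table used. These matches are letters in a window and carry no measurement of binding.

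The comparison asks which genes change when miR-200c is induced. In limma's test with Benjamini-Hochberg adjustment over all genes, 5 of the 34 members passed as lower in doxycycline (14.7%), against 3.74% of all genes. MICB was the 1 member that passed as higher (2.94%), against 5.77% of all genes, and 28 members did not pass. The 5 lower members, HLA-B, HLA-C, HLA-E, TAP1 and TAP2, are all in the class I pathway, where 5 of 23 genes fell (21.7%) and 0 rose. The median log2 change was -0.09 over the class I genes, -0.03 over the class II genes and -0.01 over all genes. In 13 members every doxycycline array lay below every untreated array, where 11.9% of all genes did so, and in PSMB8 and MICB every doxycycline array lay above, where 14.1% of all genes did so. When each gene was summarised by its median row, TAP2, PDIA3 and PSMB10 passed as lower and MICB as higher, against 1.12% of all genes lower and 1.84% higher. TAP1, HLA-B, HLA-C and HLA-E did not pass there, with changes of -0.39, -0.41, -0.39 and -0.24. As gene means over all rows, dim ones included, the falls ran from 12.3% for HLA-E to 18.3% for TAP1. Medians over distinct rows above the array's background, given below, were larger falls, at -0.24 for HLA-E and -0.36 for TAP1. Bulk RNA cannot tell fewer expressing cells from less RNA per cell.

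**Figure D1:**
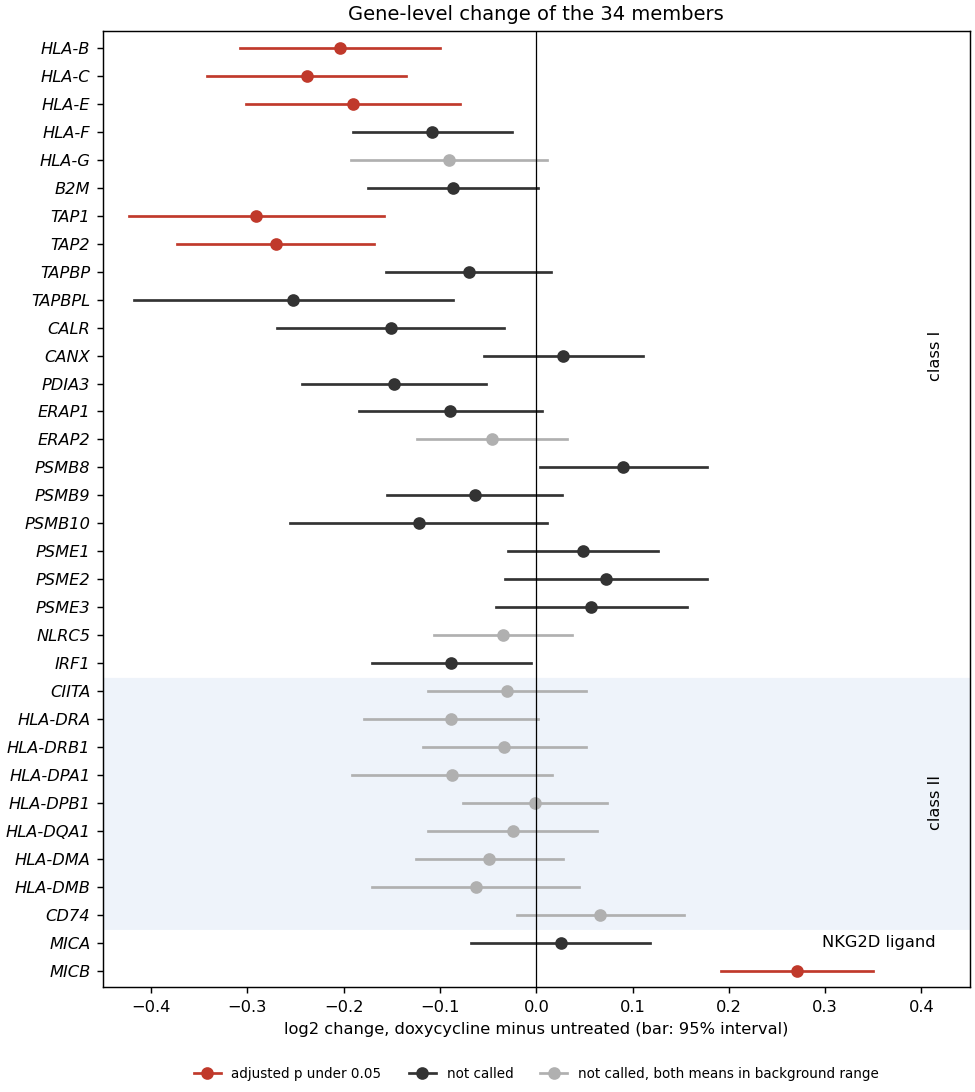
Log2 change (doxycycline minus untreated) of each of the 34 members with its 95% confidence interval from limma, grouped by class. Intervals of the 5 called class I genes lie below 0 and that of MICB lies above 0, while class II genes lie close to 0.

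Of the 5 class I heavy chain genes measured, 3 fell (60%), against 3.74% of all genes. HLA-C, a classical heavy chain that also binds receptors of natural killer cells, had log2 intensities of 8.15, 8.20 and 8.16 untreated and of 7.95, 7.84 and 8.00 in doxycycline, given here and for later genes in the order of arrays A, B, C. The untreated arrays were all higher, and doxycycline B was the lowest. The change was -0.24 (SE 0.045, 95% interval -0.34 to -0.14, adjusted p = 0.0126 in limma), or 15.2% lower.

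HLA-B, the other classical heavy chain gene here, had 7.89, 7.98 and 7.93 untreated and 7.75, 7.65 and 7.79 in doxycycline. The groups did not overlap, and doxycycline B was again the lowest array. The change was -0.20 (SE 0.045, 95% interval -0.31 to -0.10, limma adjusted p = 0.0260), or 13.2% lower, and with 1 array left out the call was lost in 5 of 6 fits.

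HLA-E presents leader peptides of other class I chains to the receptor NKG2A. Its values were 9.63, 9.71 and 9.61 untreated and 9.51, 9.37 and 9.50 in doxycycline, with no overlap and with doxycycline B lowest. The change was -0.19 (SE 0.049, 95% interval -0.30 to -0.08, limma adjusted p = 0.0450). This call was the least steady of the 5, since leaving out any 1 of the 6 arrays gave an adjusted p from 0.0533 to 0.134.

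HLA-F and HLA-G, nonclassical heavy chains of restricted expression, did not pass. HLA-F had 6.43, 6.53 and 6.47 untreated and 6.38, 6.37 and 6.36 in doxycycline, a change of -0.11 with a limma adjusted p of 0.115. Its groups did not overlap, and its treated mean of 6.37 stood just above the range of the array's 23 background rows, 4.10 to 6.36, below which a mean is here said to lie in the background range. HLA-G had 6.18, 6.16 and 6.18 against 6.01, 6.07 and 6.17, with both means in that range and overlapping groups (change -0.09, adjusted p = 0.294).

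B2M, the light chain shared by all these heavy chains, did not pass. Its values were 10.00, 9.98 and 10.09 untreated and 9.96, 9.93 and 9.91 in doxycycline. The arrays did not overlap, but the gap between the groups was small, and the change of -0.09 had a 95% interval of -0.18 to 0.00 (limma adjusted p = 0.239).

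**Figure D2:**
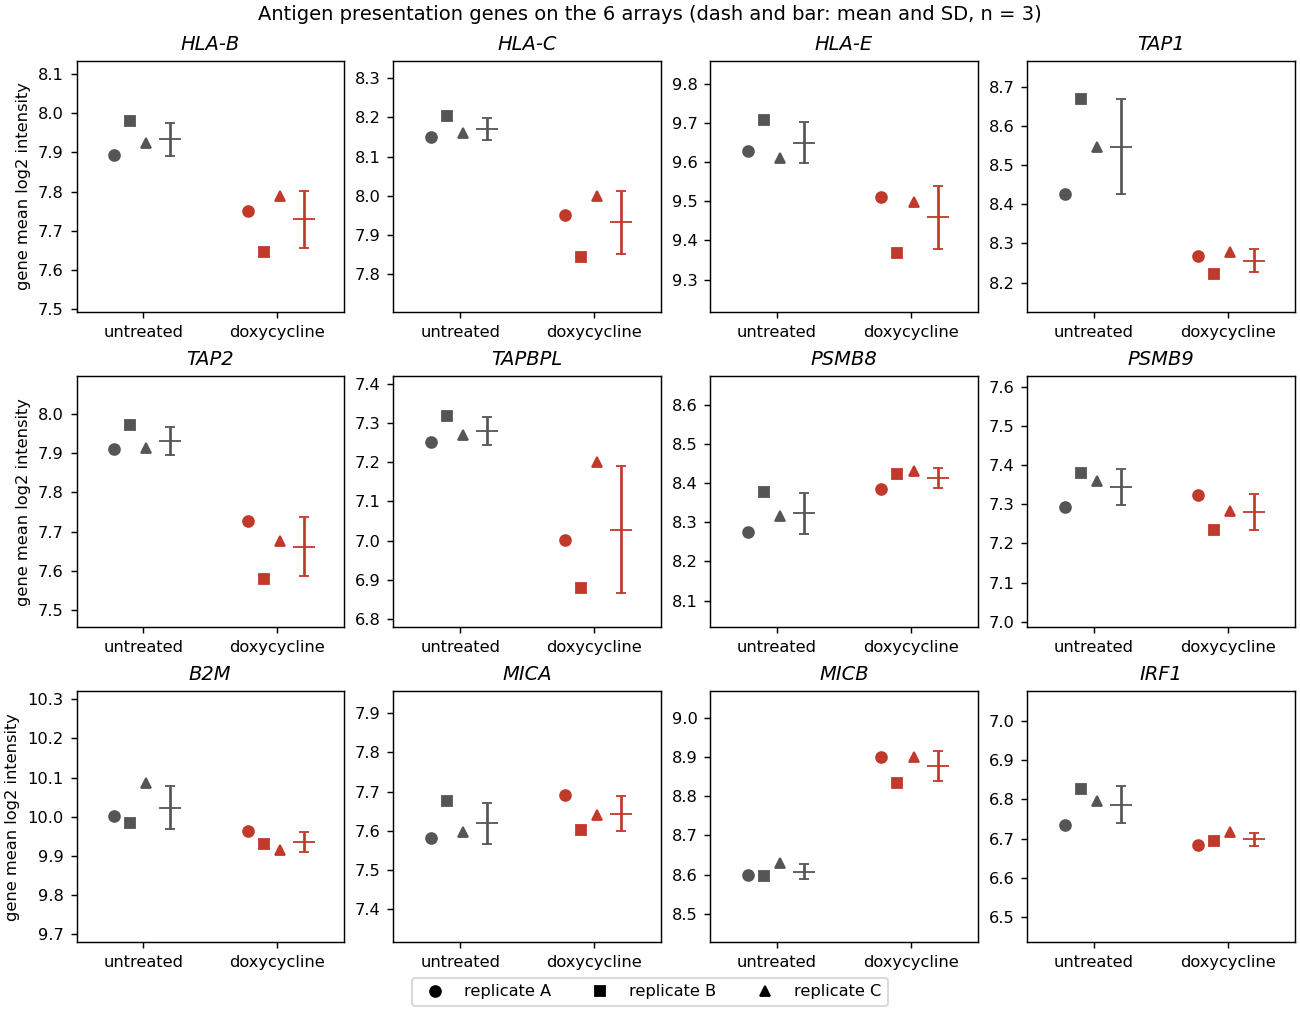
Mean log2 intensity of 12 members on each of the 6 arrays, 1 panel a gene, with the group mean and SD (n = 3) as dash and bar; all panels span the same height on the log2 axis. HLA-B, HLA-C, HLA-E, TAP1 and TAP2 are lower on all doxycycline arrays, MICB is higher on all of them, and the groups of PSMB9 and MICA overlap.

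Both subunits of the peptide transporter fell. TAP1 had 8.43, 8.67 and 8.54 untreated and 8.27, 8.22 and 8.28 in doxycycline. The untreated arrays were all higher and also more spread, with an SD of 0.121 against 0.0300. The change was -0.29 (SE 0.058, 95% interval -0.42 to -0.16, limma adjusted p = 0.0160), or 18.3% lower. Without doxycycline B it was -0.27, and the adjusted p of 0.0728 no longer passed.

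TAP2 had 7.91, 7.97 and 7.91 untreated and 7.73, 7.58 and 7.68 in doxycycline. All treated arrays were below all untreated ones. The change was -0.27 (SE 0.045, 95% interval -0.37 to -0.17, limma adjusted p = 0.00667), or 17.1% lower, and it passed under all 17 alternative settings tried.

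Among the other 5 genes with a role in peptide loading none passed. TAPBP encodes tapasin, which bridges TAP and the heavy chain; its values were 9.08, 9.13 and 9.08 untreated and 9.04, 8.98 and 9.07 in doxycycline. Those groups lay apart by very little, and the change was -0.07 (limma adjusted p = 0.343). TAPBPL, the tapasin-related peptide editor, had a change close in size to that of TAP1 but a wider treated spread, with 7.25, 7.32 and 7.27 against 7.00, 6.88 and 7.20. Its change was -0.25 (SE 0.073, 95% interval -0.42 to -0.09, limma adjusted p = 0.0702). Without doxycycline C it was -0.34 with an adjusted p of 0.00704, the only 1 of 6 fits with 1 array left out that passed. Over all 17 alternative settings the change ran from -0.46 to -0.18 and the adjusted p from 0.00704 to 0.186.

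The thiol oxidoreductase gene PDIA3, whose product ERp57 sits in the loading complex, had 10.14, 10.14 and 10.19 untreated and 9.98, 9.96 and 10.08 in doxycycline. The groups did not overlap, yet the change of -0.15 had a limma adjusted p of 0.0649. The lectin chaperones CALR (calreticulin) and CANX (calnexin) had changes of -0.15 and 0.03 (adjusted p 0.12 and 0.743), and in both the groups overlapped. The aminopeptidase genes ERAP1 and ERAP2, which trim peptides in the endoplasmic reticulum, had changes of -0.09 and -0.05 (adjusted p 0.266 and 0.530), and ERAP2 had both means in the background range.

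None of the 6 proteasome members passed, and their median log2 change was 0.05. PSMB8, an interferon-inducible catalytic subunit of the immunoproteasome, had 8.27, 8.38 and 8.32 untreated and 8.38, 8.42 and 8.43 in doxycycline. Treated arrays were the higher ones here, by a narrow margin, with a change of 0.09 (95% interval 0.00 to 0.18, limma adjusted p = 0.211). PSMB9, another such subunit, had 7.29, 7.38 and 7.36 against 7.32, 7.23 and 7.28, with overlapping groups and a change of -0.06 (95% interval -0.15 to 0.03, adjusted p = 0.429).

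The remaining immunoproteasome subunit gene PSMB10 had a change of -0.12 (adjusted p = 0.281). The genes of the proteasome activator PA28, PSME1, PSME2 and PSME3, had changes of 0.05, 0.07 and 0.06 with limma adjusted p of 0.50, 0.443 and 0.544, and their groups overlapped. The product of PSME3 works mainly in the nucleus and is not tied to peptide supply in the way of the other PA28 subunits.

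TAP1 and PSMB9 lie next to each other on chromosome 6 with gene starts 488 bases apart on opposite strands, and they share the stretch between them as promoter. On each array the log2 value of TAP1 minus that of PSMB9 was 1.13, 1.29 and 1.18 untreated and 0.94, 0.99 and 1.00 in doxycycline. The groups did not overlap, and the differences fell by 0.23. The pair was chosen with these changes known, so this gap is not separate evidence. An exact two-sided permutation test gave p = 0.1 for this pair, which is the smallest p that 3 against 3 arrays allow, also after adjustment over the 2 gene pairs compared. A difference between TAP1 and PSMB9 was therefore not shown.

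The regulators of these genes did not pass either. NLRC5, the transactivator of class I genes, had 5.36, 5.35 and 5.37 untreated and 5.32, 5.35 and 5.32 in doxycycline, all in the background range, with a change of -0.03 (limma adjusted p = 0.622). IRF1, an interferon-induced transcription factor that acts on class I promoters, had 6.74, 6.83 and 6.80 against 6.68, 6.69 and 6.72. Its treated arrays were all lower, by a change of -0.09 with an adjusted p of 0.195. CIITA, the transactivator of class II genes, had 5.42, 5.35 and 5.36 against 5.33, 5.34 and 5.38, overlapping and in the background range (change -0.03, adjusted p = 0.713).

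All 9 class II members, CIITA included, had both means in the background range, and 0 passed in either direction in limma, also at an unadjusted p under 0.05. Their group means lay between 4.59 and 5.51, and their log2 changes between -0.09 and 0.07, with adjusted p from 0.241 to 0.988. HLA-DRA, the alpha chain of HLA-DR, had 4.65, 4.74 and 4.64 untreated and 4.57, 4.63 and 4.58 in doxycycline, and none of its 21 distinct rows lay above the background range. CD74, the invariant chain that guards the peptide groove, had 5.18, 5.25 and 5.23 against 5.23, 5.31 and 5.32, with groups that overlap. The change of CD74 was 0.07 and its adjusted p was 0.383.

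The chain genes HLA-DRB1, HLA-DPA1, HLA-DPB1 and HLA-DQA1 had changes of -0.03, -0.09, -0.00 and -0.02. The genes HLA-DMA and HLA-DMB, whose products exchange the invariant chain remnant for peptide, had changes of -0.05 and -0.06. The other 8 class II members had some distinct rows above the background range. CIITA had 9, all with lower values in doxycycline (median change -0.09), and HLA-DMB had 7, of which 6 were lower (median -0.21). One of the 4 such rows of CD74 was bright, at 12.02 untreated and 11.84 in doxycycline. Most HLA-DRB1 rows name another gene too, and of its 22 distinct rows above the range 12 were lower and 10 higher. With rows above the range in each group by itself, CIITA had 6, all lower (median -0.09), and CD74 had 3, all lower. On the same terms HLA-DMB had 5 of 6 lower (median -0.20) and HLA-DRB1 11 of 20. No class II row passed by itself. A mean at background can hide a fall, so these values set no limit on how class II transcripts responded.

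Of the NKG2D ligand genes MICB rose and MICA did not pass. MICB had 8.60, 8.60 and 8.63 untreated and 8.90, 8.83 and 8.90 in doxycycline. All treated arrays were above all untreated ones, and the change of 0.27 was many times the spread within either group (SDs 0.0186 and 0.0378). Its SE was 0.035, its 95% interval 0.19 to 0.35 and its limma adjusted p 0.00178, a rise of 20.6% that passed under all 17 alternative settings.

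MICA had 7.58, 7.68 and 7.60 against 7.69, 7.60 and 7.64, with mixed arrays and a change of 0.03 (95% interval -0.07 to 0.12, limma adjusted p = 0.797), while the median of its rows gave -0.32 (adjusted p = 0.0907). The log2 value of MICB minus that of MICA was 1.02, 0.92 and 1.03 on the untreated arrays and 1.21, 1.23 and 1.26 on the doxycycline arrays. The differences rose by 0.25, again without overlap. The exact two-sided permutation p was 0.1, again the smallest possible, so this test cannot decide whether these genes differ in their change. Both pairs of genes were chosen with their changes known. MICA and MICB are close paralogs, as are the HLA heavy chain genes, and no source used here says how far a probe reads its paralogs, so the split of signal between them is uncertain. For some rows of HLA-B and HLA-C the group means were equal, so these genes share part of their signal.

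Single rows, each an exon region or junction, show how evenly a member moved. Many rows repeat: 19 of the members lie on chromosome 6 and have rows on alternative haplotype sequences too. Of the 4774 member rows only 1799 had values distinct within their gene. Of these, 792 had a mean over all 6 arrays above the background range. All 34 such rows of TAP2 were lower in doxycycline, with changes from -0.62 to -0.15 and a median of -0.33. All 22 of TAP1 were lower as well (median -0.36), as were all 24 of HLA-E (median -0.24) and all 15 of TAPBPL (median -0.41).

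The heavy chain rows were nearly as even. In HLA-B 56 of 57 distinct rows above background were lower (median -0.30) and in HLA-C 67 of 74 (median -0.31). HLA-F had 28 of 31 lower with a median of -0.24, and B2M 11 of 13 with a median of -0.11. HLA-G, whose gene mean lay at background, had 19 such rows, of which 18 were lower (median -0.19). Kept to rows above the range in each group by itself, HLA-F had 24 of 27 lower (median -0.20) and TAP2 33 of 33 (median -0.33). TAP1 then had 21 of 21 lower, HLA-B 54 of 55 and HLA-C 64 of 71. A median over bright distinct rows and a gene mean over all rows are not the same measure. In PSMB8 3 of 18 were lower (median 0.14), and in CANX 29 of 68 (median 0.01). Some HLA-B and HLA-C rows had equal group means, such as 11.87 untreated and 11.71 in doxycycline, so the counts for these genes overlap.

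MICB had 31 of 34 such rows higher with a median of 0.40 and a range of -0.25 to 0.85. MICA had 25 of 33 higher with a median of 0.12, and its rows ran from -0.44 to 0.95. The rows of a gene share its arrays and partly its probes, so these counts describe a spread and are not replicates.

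**Figure D3:**
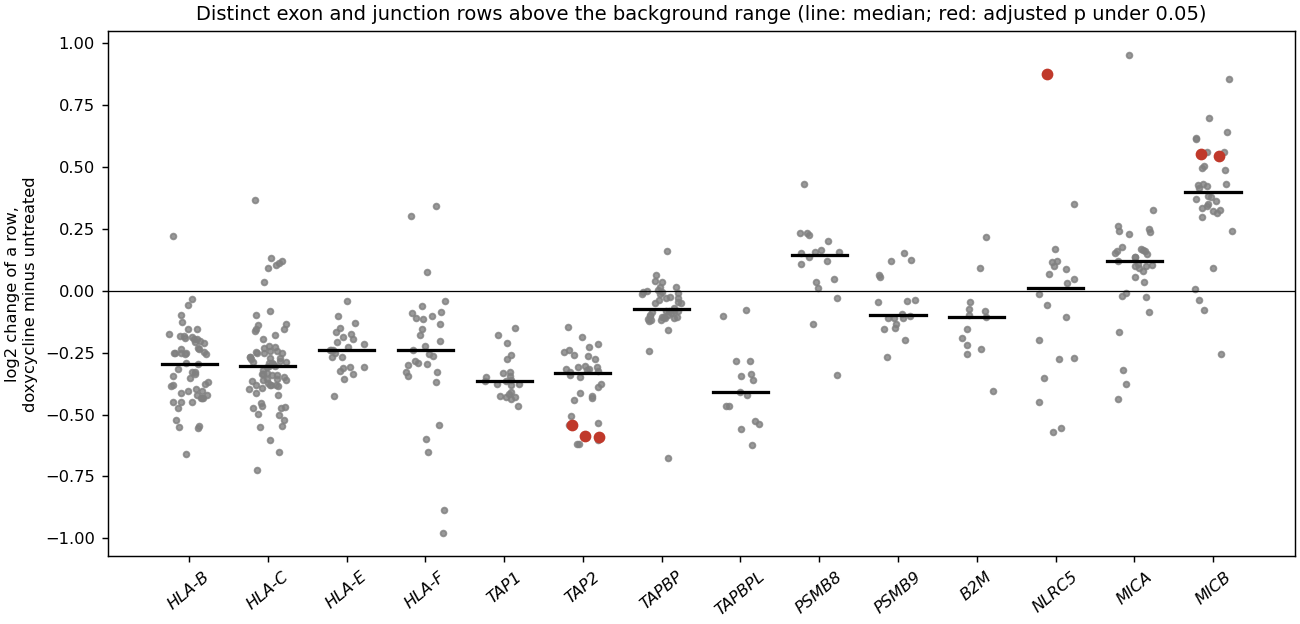
Log2 change (doxycycline minus untreated) of each distinct row above the background range, for 14 members, with the median of each as a line and rows past the adjusted p of 0.05 in red. The rows of TAP1, TAP2, HLA-E and TAPBPL all lie below 0, those of MICB mostly above, and those of MICA spread from -0.44 to 0.95.

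Tested 1 by 1, 8 of the member rows passed as lower (0.168%), against 0.277% of all rows, and 4 passed as higher (0.0838%), against 0.451% of all rows. The shares lie below those of all rows. Without repeats these are 3 rows lower, all exon regions of TAP2, and 3 rows higher. The TAP2 regions went from 9.49 to 8.95, from 9.57 to 8.98 and from 7.47 to 6.88, with limma adjusted p of 0.0302, 0.0326 and 0.0456. The MICB regions went from 10.25 to 10.80 and from 10.21 to 10.76, both with an adjusted p of 0.0385. Such row calls were not steady. With 1 array left out 0 member rows passed as lower and 0 to 1 as higher. With a term for the replicate letter added to the fit, 0 passed in either direction.

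The other higher row is a junction of NLRC5, a gene whose mean lay at background. It had 7.28, 6.87 and 7.13 untreated and 7.94, 7.97 and 7.99 in doxycycline. All treated arrays were higher, by 0.87 (SE 0.11, limma adjusted p = 0.0292), while 10 of the 20 distinct NLRC5 rows above background were lower and 10 higher. With rows above the range in each group by itself, 7 of 17 were lower and 10 higher.

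Other genes of the pathway were taken from lists of known members. All 14 genes of the constitutive proteasome did not pass, with changes between -0.09 and 0.08 (0 also at an unadjusted p under 0.05). Of 10 further partners of loading 1 fell (10%) and 0 rose, against 3.74% and 5.77% of all genes. PDIA4, an oxidoreductase of the endoplasmic reticulum, fell by 0.17 (limma adjusted p = 0.0361). LNPEP, an aminopeptidase of endosomes, had a change of 0.22 and an adjusted p of 0.0552.

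Of 5 endosomal proteases and reductases of the class II route 3 fell (60%) and 1 rose (20%), against 3.74% and 5.77% of all genes. Class II genes themselves lay at background. The protease genes LGMN and CTSB fell by 0.36 and 0.15 (limma adjusted p 0.00705 and 0.0236), and CTSS, whose means were in the background range, by 0.17 (0.0264). IFI30, the thiol reductase GILT, went from 9.69 to 10.02 and rose by 0.34 (adjusted p = 0.00872). Of 4 other class II genes none passed, in either direction, and all were in the background range. CTSL was not analysed here.

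Of 5 nonclassical presenting genes 1 fell (20%, against 3.74% of all genes). PROCR, which encodes a protein C receptor with a class I-like fold, fell by 0.38 (limma adjusted p = 1.67e-04). Of 8 other NKG2D and stress ligand genes 0 passed in either direction in limma (0 lower and 1 higher at an unadjusted p under 0.05), and 6 of them had both means in the background range. Of 19 regulators 0 fell and 1 rose (5.26%, near the 5.77% of all genes). At an unadjusted limma p under 0.05, 6 of the 19 were lower and 4 higher, against 2241 and 2936 of the 23923 genes. The interferon-gamma receptor chain gene IFNGR1 rose by 0.26 (limma adjusted p = 0.0166). STAT2 and IRF9, which act together downstream of type I interferon, had changes of -0.22 and -0.08 (adjusted p 0.0965 and 0.306).

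Several values moved with the class I genes or bear on the arrays. MIR200C, measured by 1 row, rose from 4.96 ± 0.256 to 9.53 ± 0.0242 (SD, n = 3, limma adjusted p = 3.35e-07). That is at least 8.99-fold against the top of the background range. No source used here says whether this row reads the mature microRNA. ZEB1, a known target of the miR-200 family, fell by 0.77 (limma adjusted p = 1.17e-05). Untreated cells had VIM, CDH2 and FN1 at 10.46, 9.90 and 8.97 and ESR1, PGR and CDH1 in the background range at 4.90, 4.64 and 5.33. In doxycycline CDH1 was at 7.10 (adjusted p = 6.93e-07), FN1 fell by 0.41 (8.17e-04) and CDH2 rose by 0.15 (0.0237), and their part in the class I values was not tested. Of 13 leukocyte markers 12 lay in the background range in both groups, all but CD83 (6.79 and 6.86), as did both endothelial markers, and none of these passed. Of the 23 class I members 13 were highest on untreated B and 11 were lowest on doxycycline B, and the part of these arrays in the falls was not tested beyond leaving each out.

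**Figure D4:**
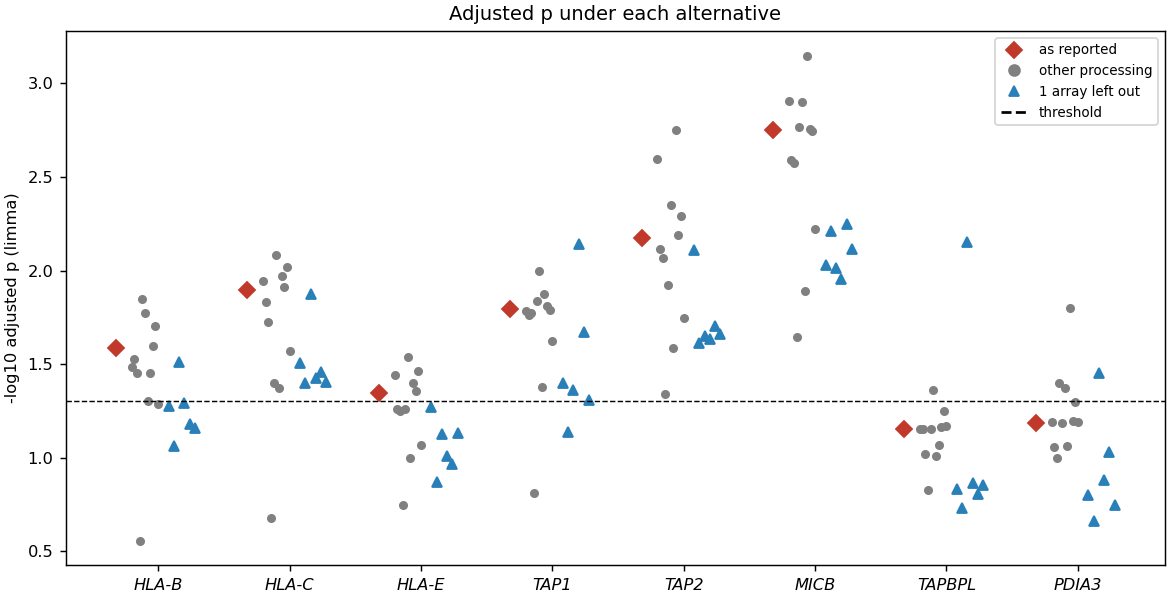
Minus log10 of limma's adjusted p for the 6 called members, TAPBPL and PDIA3 as reported (diamonds) and under 17 alternatives (circles and triangles), with the threshold of 0.05 as a dashed line. TAP2 and MICB lie above the line throughout, while HLA-E passes under 5 of the 17.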

How the data were processed

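RNA of 6 cultures was hybridised to 1 array each. The authors deposited log2 intensities, 1 per exon region or junction and array; the submitters' processing notes name Partek, and no source used here gives its version, the normalization, the summarisation or the build. The range of the values shows the log2 scale. Per the labels' protocols 1 µg of total RNA was labelled with a FlashTag kit, a kind mostly used on microRNA arrays. The rows are exon regions and junctions, so how this RNA was labelled is not settled. Of 925032 rows 345 were controls; of the 924687 tested, 672085 had 1 symbol in the platform annotation, 39483 several and 213119 none. Array medians ran from 5.18 to 5.21, the lowest correlation between arrays over genes was 0.994, and no array was a copy of another.

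Gene values were means over rows. Genes and rows were each fitted with limma 3.58.1 (lmFit, eBayes; R 4.3.3 with data.table, version 1.17.8) on all 6 arrays with group as its only term, with Benjamini-Hochberg adjustment over all genes or rows and a threshold of 0.05. The fit was tested on simulated data. Files were prepared in pandas 2.3.3 and figures drawn with matplotlib 3.10.9. Values per array were named for called members and for a fixed set of others, and rows by smallest p. The members and lists were chosen with earlier results of these data known.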

Additional observations from a re-analysis of the deposited data

How the results depend on the processing

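The 17 alternatives at gene level changed the summary of rows, the rows or genes used, the centring, the variance model, the arrays, or added a replicate block; leaving out haplotype rows or repeated rows was added after seeing the data. TAP2 (adjusted p from 0.0018 to 0.0454) and MICB (0.0007 to 0.0226) passed in all 17, HLA-C in 16, TAP1 in 15, HLA-B in 10 and HLA-E in 5. The counts of members and of class I members lower were both 3 with the median of rows (1.12% of all genes lower), 3 with the replicate block (3.45%), 7 with brighter genes alone (8.05%), 7 with exon regions alone (4.44%), and from 2 to 6 with 1 array left out (2.15% to 3.52%); the class II count stayed at 0 and the count of members higher at 1. With the median of rows the changes were -0.39 for HLA-C (adjusted p = 0.210), -0.39 for TAP1 (0.154), and -0.41 for HLA-B (0.277), and the sign turned for the uncalled genes HLA-G, PSMB8, PSMB9 and MICA and for 3 class II genes with changes near 0. PDIA3 passed in 4 alternatives, TAPBPL in 2, and CALR, HLA-F and PSMB10 in 1 each. Of member rows, 2 were lower and 12 higher with a trended, robust variance, 3 were lower without repeats, and 0 in either direction with the replicate block; with 1 array left out, 0 were lower and 0 to 1 higher. The cause was not tested. No source used here says that the letters A, B and C mark a shared plate or day. Deviations of same-letter arrays correlated at -0.17, -0.02 and 0.21, and 0 of 6 arrays correlated best with its own letter. With 3 arrays in a group these correlations depend on each other and cannot exclude a pairing. Gene means at background limit HLA-G, ERAP2, NLRC5 and the class II genes, single rows of which, except in HLA-DRA, lay above it.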
